A study of Mus musculus with 6 samples.

Results

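10 genes that help decide whether pyruvate is burned in mitochondria were followed in brown adipose tissue (BAT): the E1 subunits of pyruvate dehydrogenase *Pdha1* and *Pdhb*, the kinases *Pdk1* to *Pdk4*, the phosphatases *Pdp1* and *Pdp2*, and the mitochondrial pyruvate carriers *Mpc1* and *Mpc2*. They were picked by gene symbol, as a pathway, with earlier results of these data known, and are 10 of 47729 genes in the deposited tables. Right interscapular BAT came from male, wild type C57BL/6J mice, fed from 6 to 10 weeks of age with a 45% high-fat diet (HFD, n = 3) or with a standard low-fat rodent diet (LFD, n = 3). The mice were housed singly and carried no transgene, and per the methods the 3 mice of each diet were picked from a larger group to span its fat mass. The labels number them 1 to 3 without saying which had more fat.

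Pyruvate, the end product of glycolysis, enters the mitochondrial matrix through a carrier built of MPC1 and MPC2. The pyruvate dehydrogenase complex then turns it into acetyl-CoA, which feeds the citric acid cycle or fat synthesis. The kinases phosphorylate the E1 alpha subunit and shut the complex off, and the phosphatases switch it on again. *Pdk4* is the isoform best known for its induction by fasting, fatty acids and PPAR signaling, a state in which tissues spare glucose and burn fat. BAT is rich in mitochondria and takes up both glucose and fatty acids to make heat. mRNA levels do not show the phosphorylation of the complex or the flux through it.

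The promoters of the kinases that made up most of the kinase mRNA are shown first, because the share of *Pdk4* in that mRNA did not overlap between the diets. Each line gives the 250 bases before the RefSeq transcription start, 5′ to 3′ on the gene's own strand (GRCm38.p6), with matches to the searched motifs in capitals. *Pdk4* is taken from chr6:5496279-5496528 on the minus strand, *Pdk1* from chr2:71872974-71873223 on the plus strand, and *Pdk2* from chr11:95041372-95041621 on the minus strand.
Pdk4: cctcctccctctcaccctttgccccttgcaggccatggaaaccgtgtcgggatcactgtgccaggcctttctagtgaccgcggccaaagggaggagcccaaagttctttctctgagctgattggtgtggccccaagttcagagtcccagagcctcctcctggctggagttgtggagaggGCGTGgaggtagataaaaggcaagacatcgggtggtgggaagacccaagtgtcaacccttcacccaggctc
Pdk1: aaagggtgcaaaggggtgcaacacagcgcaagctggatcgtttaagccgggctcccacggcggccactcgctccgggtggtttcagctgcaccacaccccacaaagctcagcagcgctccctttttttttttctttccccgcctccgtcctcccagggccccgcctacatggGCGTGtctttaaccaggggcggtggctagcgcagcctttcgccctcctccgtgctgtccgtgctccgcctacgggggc
Pdk2: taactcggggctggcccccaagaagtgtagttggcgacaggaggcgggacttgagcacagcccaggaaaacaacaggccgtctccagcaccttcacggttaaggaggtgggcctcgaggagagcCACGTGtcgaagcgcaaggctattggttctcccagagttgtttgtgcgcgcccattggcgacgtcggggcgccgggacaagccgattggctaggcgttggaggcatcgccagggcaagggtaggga

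The motifs searched on both strands were AGGTCA, the half-site bound by nuclear receptors, its direct repeat with a single base between the copies, as bound by PPAR with RXR, and ACGTG and GCGTG, the cores bound by basic helix-loop-helix factors such as HIF1 and the aryl hydrocarbon receptor. The *Pdk4* window held a GCGTG match that starts 71 bases before the RefSeq transcription start and no other match. GENCODE places the start of *Pdk4* farther upstream, at 5496309, so part of this window lies inside the gene by that annotation. The *Pdk1* window held a GCGTG match that starts 78 bases before the start. The *Pdk2* window held ACGTG on both strands, and the matches overlap as CACGTG. *Pdk1* and *Pdk2* each have another annotated start, whose window is not shown. Among 32851 promoter windows of the same length, 14.0% held AGGTCA, 0.0335% held the direct repeat, 16.6% held ACGTG and 28.2% held GCGTG. These are matches of letters only. They do not show binding, and response elements farther away lie outside these windows.

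Between 17156991 and 21603487 rounded counts per mouse fell on genes, and all 10 members passed the filter on low counts, with 17668 genes tested. Levels are given as TPM, transcript amounts corrected for length and scaled to a fixed total per mouse, which can be compared between genes. Where 3 values of a diet are listed, they belong to replicates 1, 2 and 3 in that order. The labels do not say that mice with the same number form a pair. Comparisons of same-numbered pairs, and fits with the number as a block, rest on a check of these same data. Differences between diets are log2 fold changes, HFD over LFD, from the edgeR quasi-likelihood fit to the counts, with adjusted p-values by Benjamini-Hochberg over all tested genes. The call rule required an adjusted p under 0.01 together with a log2 fold change beyond 1.5 in either direction. No gene met it in edgeR (0 of 17668, percent called 0), while DESeq2 called 411 genes and limma on log2(TPM + 1) called 1. At an unadjusted p under 0.05, 3.86% of all tested genes were higher and 6.62% lower in HFD. All HFD mice lay above all LFD mice in log2 CPM for 6.72% of genes and below them for 9.23%. Since whole tissue was sequenced, fewer cells of a type and less RNA per cell cannot be told apart.

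Among the 10 members, the kinase *Pdk4* was the one whose levels did not overlap between the diets. Its level was 294, 396 and 247 TPM in HFD, and 114, 107 and 26.9 TPM in LFD. The lowest HFD mouse thus lay above the highest LFD mouse. *Pdk4* (ENSMUSG00000019577, chromosome 6 from 5483351 to 5496309, minus strand, GRCm38) averaged 312 ± 76.2 TPM (SD, n = 3) in HFD and 82.5 ± 48.2 TPM (SD, n = 3) in LFD mice. These levels rest on 11530 to 17834 counts per HFD mouse and 958 to 5450 counts per LFD mouse.

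The log2 fold change of *Pdk4* was 1.99 (standard error 0.72), a fold of 3.98 with a 95% interval from 1.21 to 13.1. In the edgeR quasi-likelihood fit its unadjusted p was 0.0290 and its adjusted p 0.409, so *Pdk4* was not called. Of all tested genes, 1251 (7.08%) had a p as small or smaller. An exact two-sided permutation test on its log2 CPM gave p = 0.1, below which 3 mice per diet cannot go. In mice with the same replicate number, the difference in log2 CPM was 1.54, 2.11 and 3.40. Leaving out any 1 mouse gave a log2 fold change from 1.52 to 2.70. The unadjusted edgeR p was 0.0744 without HFD replicate 1, 0.0628 without HFD replicate 2 and 0.0819 without LFD replicate 2.

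*Pdk4* was 1 of 10 members that did not overlap between the diets, beside 6.72% of all tested genes above and 9.23% below. It was also the 1 member at an unadjusted p under 0.05 (edgeR), beside 3.86% of all tested genes higher and 6.62% lower. A count of 1 in 10 does not set the members apart from all tested genes. The other 9 members overlapped, with log2 fold changes from -0.93 to 0.42, unadjusted p from 0.270 to 0.931 and adjusted p from 0.774 to 0.989 (edgeR). The median log2 fold change was -0.24 over the 10 members and -0.05 over all tested genes. Their intervals were wide: that of *Mpc1* ran from -3.35 to 1.49 and that of *Pdk3* from -0.97 to 1.04, so that these data do not show that the members were alike in the diets.

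**Figure D1:**
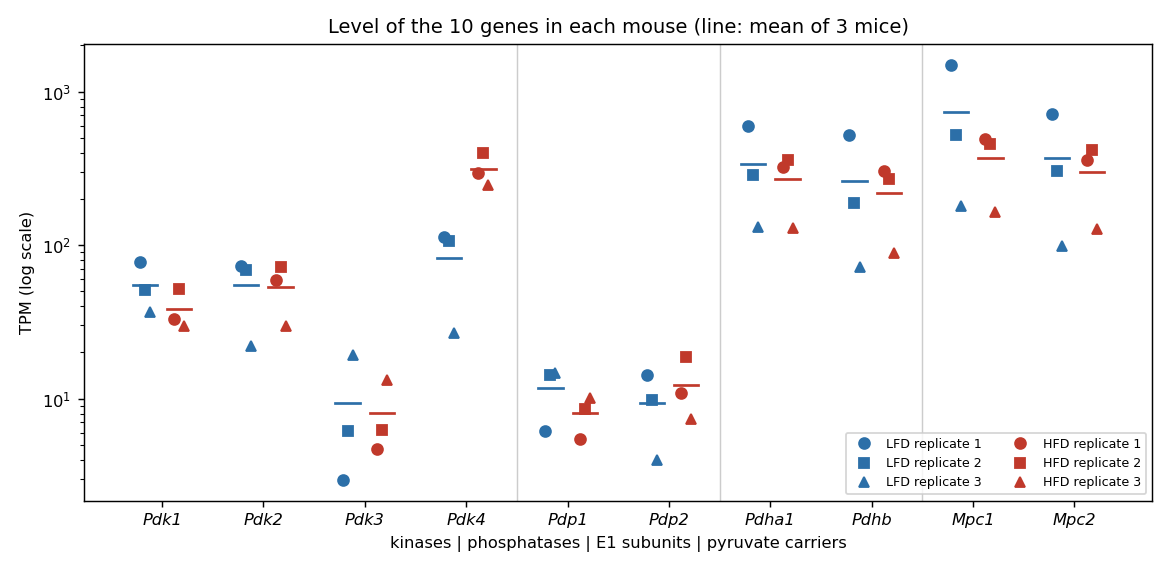
TPM of each member (log scale) in the 3 LFD mice (blue) and the 3 HFD mice (red), with marker shapes for the replicate number and a line at the mean of 3 mice. The *Pdk4* points of HFD mice, 247 to 396 TPM, lie above those of LFD mice, 26.9 to 114 TPM, and the other 9 members overlap.

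**Figure D2:**
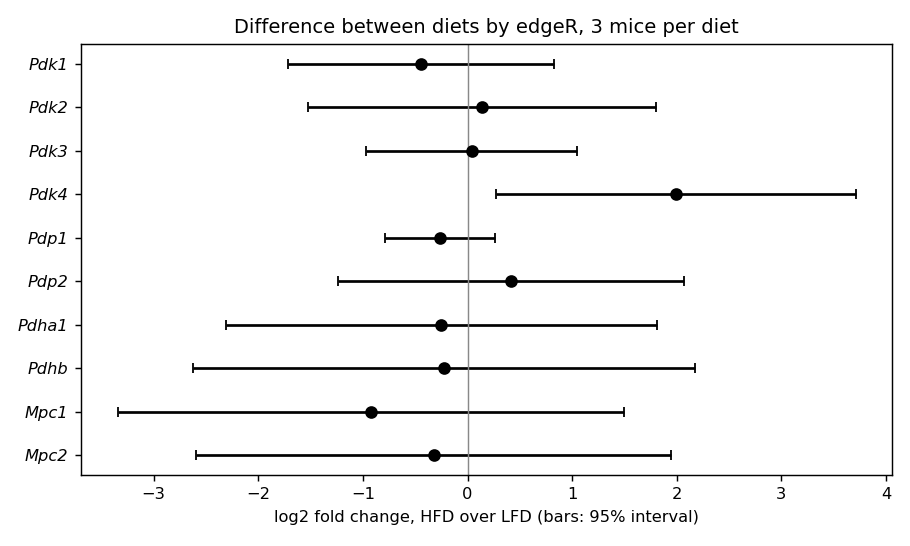
Log2 fold change, HFD over LFD, of the 10 members by edgeR (points) with 95% intervals (bars), 3 mice per diet. The interval of *Pdk4*, from 0.27 to 3.71, is the one that does not reach 0.

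The other kinases overlapped between the diets. *Pdk1*, an isoform known as a target of hypoxia signaling, was at 33.2, 51.8 and 29.6 TPM in HFD and at 78.0, 51.0 and 36.5 TPM in LFD. Its log2 fold change was -0.44 (standard error 0.53, edgeR adjusted p = 0.861), and the diets overlapped. *Pdk2*, the most widely expressed isoform, was at 58.9, 71.8 and 29.8 TPM in HFD and at 73.2, 68.8 and 22.1 TPM in LFD mice. Its log2 fold change of 0.14 was smaller than its standard error of 0.70 (edgeR adjusted p = 0.974), and replicate 3 was the lowest mouse in both diets.

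*Pdk3* had the lowest mean level of the 4 kinases in both diets. It was at 4.69, 6.21 and 13.1 TPM in HFD and at 2.95, 6.12 and 19.2 TPM in LFD. Its log2 fold change was 0.04 (standard error 0.42, edgeR adjusted p = 0.989). Replicate 3 was the highest mouse in both diets, the reverse of *Pdk2*. The summed TPM of 12 macrophage markers was also highest in replicate 3, at 5062 in HFD and 5118 in LFD, and lowest in replicate 1, at 2282 and 663. Endothelial markers kept the same order, with sums of 612 and 411 TPM in replicate 3 and 149 and 192 in replicate 1. The sums of the other marker lists did not keep this order in both diets. The part of these cells in the *Pdk3* levels was not tested.

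Within each mouse, *Pdk4* made up a larger share of the kinase mRNA in HFD. It held 75.3%, 75.3% and 77.3% of the summed TPM of the 4 kinases in HFD, and 42.4%, 45.9% and 25.7% in LFD. The means were 76.0% ± 1.16 (SD, n = 3) and 38.0% ± 10.8 (SD, n = 3), a difference of 37.9 percentage points. The HFD mice were close to each other in this share although their levels of *Pdk4* ranged from 247 to 396 TPM. On summed counts, which are not corrected for length, the difference was 34.0 points.

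The shares of *Pdk1* and *Pdk2* were correspondingly lower. *Pdk1* held 8.48% to 9.85% of the kinase TPM in HFD mice and 21.9% to 34.8% in LFD mice. *Pdk2* held 9.32% to 15.0% in HFD and 21.1% to 29.5% in LFD mice. A share of a fixed total must drop when another member is higher, and the sum of the kinases without *Pdk4* was 96.7, 130 and 72.5 TPM in HFD and 154, 126 and 77.7 TPM in LFD, which overlapped. With *Pdk4* the sum was 319 to 526 TPM in HFD and 105 to 268 TPM in LFD mice, without overlap.

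**Figure D3:**
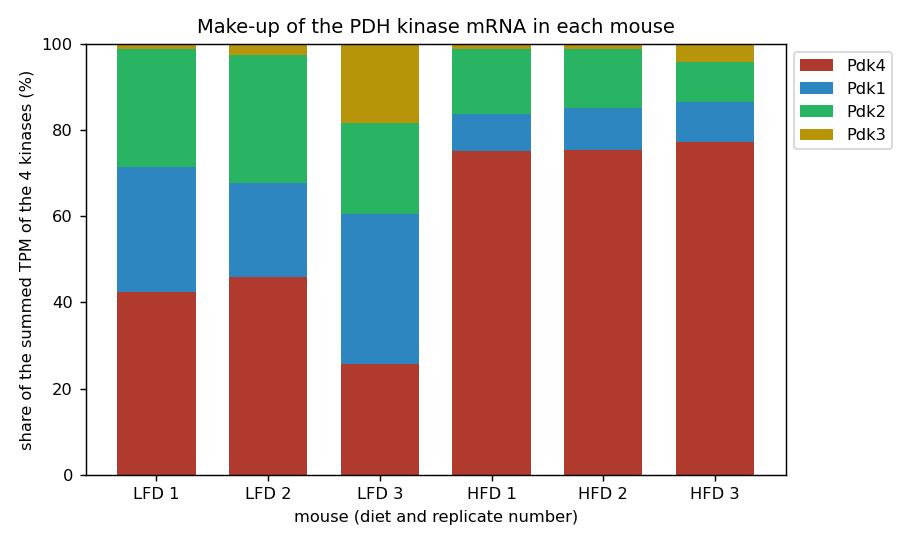
Share of each kinase (%) in the summed TPM of the 4 PDH kinases, 1 bar per mouse. *Pdk4* takes 75.3% to 77.3% in the HFD mice and 25.7% to 45.9% in the LFD mice.

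The phosphatases were expressed at a low level. *Pdp1*, the catalytic subunit known to respond to calcium, was at 5.46, 8.57 and 10.1 TPM in HFD and at 6.12, 14.4 and 14.7 TPM in LFD. Its log2 CPM differed by -0.01, -0.57 and -0.16 in the same-numbered pairs, HFD minus LFD. The first pair was thus nearly level. The diets overlapped, and the log2 fold change of -0.26 was close to its standard error of 0.22 (edgeR adjusted p = 0.774). *Pdp2*, the isoform known to respond to insulin, was at 10.9, 18.7 and 7.34 TPM in HFD and at 14.2, 9.85 and 4.01 TPM in LFD mice. The log2 fold change of *Pdp2* was 0.42 (standard error 0.70, edgeR adjusted p = 0.914).

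The phosphatase sum was 16.3, 27.2 and 17.4 TPM in HFD and 20.3, 24.2 and 18.7 TPM in LFD. The kinase sum was 24.0, 19.3 and 18.3 times the phosphatase sum in HFD mice, and 13.2, 9.63 and 5.61 times in LFD mice. This ratio did not overlap between the diets, and the phosphatase sum itself did. *Pdp2* held 42.1% to 68.5% of the phosphatase TPM in HFD and 21.5% to 69.8% in LFD mice, again overlapping.

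The E1 subunits were among the more abundant mRNAs, with *Pdha1* at rank 353 and *Pdhb* at rank 445 of the tested genes by mean TPM. *Pdha1*, the alpha subunit that carries the phosphorylation sites, was at 323, 361 and 129 TPM in HFD and at 596, 286 and 131 TPM in LFD. *Pdhb*, the beta subunit, was at 302, 269 and 89.5 TPM in HFD and at 523, 188 and 71.7 TPM in LFD mice. Replicate 3 was the lowest mouse of each diet for both subunits, and LFD replicate 1 was the highest of all 6.

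The log2 fold changes of the E1 subunits were -0.25 for *Pdha1* (standard error 0.86, 95% interval -2.31 to 1.81, edgeR adjusted p = 0.963) and -0.23 for *Pdhb* (standard error 1.01, edgeR adjusted p = 0.971). The sign was not stable, since without LFD replicate 1 these values were 0.97 and 1.39. For *Pdha1*, *Pdhb* and *Mpc2* the fitted log2 fold change was negative while the mean log2 CPM was higher in HFD. The ratio of *Pdha1* to *Pdhb* was 1.07, 1.34 and 1.44 in HFD and 1.14, 1.52 and 1.82 in LFD mice, which overlapped, and it was lower in HFD in all 3 same-numbered pairs.

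Set against its target subunit, *Pdk4* mRNA was at 0.913, 1.10 and 1.91 times the *Pdha1* level in HFD, and at 0.190, 0.374 and 0.206 times in LFD. The lowest HFD mouse lay above the highest LFD mouse. The same ratio for *Pdk1* and for *Pdk2* overlapped between the diets, and that of *Pdk1* was lower in HFD in all 3 same-numbered pairs. *Pdk4* was at 5.002, 5.51 and 8.29 times the *Pdk2* level in HFD and at 1.55, 1.55 and 1.22 times in LFD mice.

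*Mpc1* was the most abundant member, at rank 165 of the tested genes by mean TPM, and *Mpc2* stood at rank 319. *Mpc1* was at 494, 453 and 164 TPM in HFD and at 1497, 522 and 180 TPM in LFD. *Mpc2* was at 357, 417 and 126 TPM in HFD and at 712, 303 and 98.8 TPM in LFD mice. The diets overlapped for both carriers, and LFD replicate 1 was the highest mouse for each. The log2 fold changes were -0.93 for *Mpc1* (standard error 1.02, edgeR adjusted p = 0.846) and -0.32 for *Mpc2* (standard error 0.95, edgeR adjusted p = 0.955). Without LFD replicate 1 they were 0.69 and 1.14.

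While the levels of both carriers overlapped, their ratio did not. *Mpc1* was at 1.38, 1.09 and 1.3004 times the *Mpc2* level in HFD, and at 2.10, 1.72 and 1.82 times in LFD. All HFD mice lay below all LFD mice, with means of 1.26 ± 0.154 and 1.88 ± 0.196 (SD, n = 3 each). Of 18 ratios and shares of the members computed within each mouse, 4 of them kinase shares on counts, 11 did not overlap between the diets, and this was the 1 among them that does not involve *Pdk4*. No test was made of these ratios. The ratio of *Mpc1* to *Pdha1* overlapped, at 1.25 to 1.53 in HFD and 1.38 to 2.51 in LFD mice, and was lower in HFD in all 3 same-numbered pairs.

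**Figure D4:**
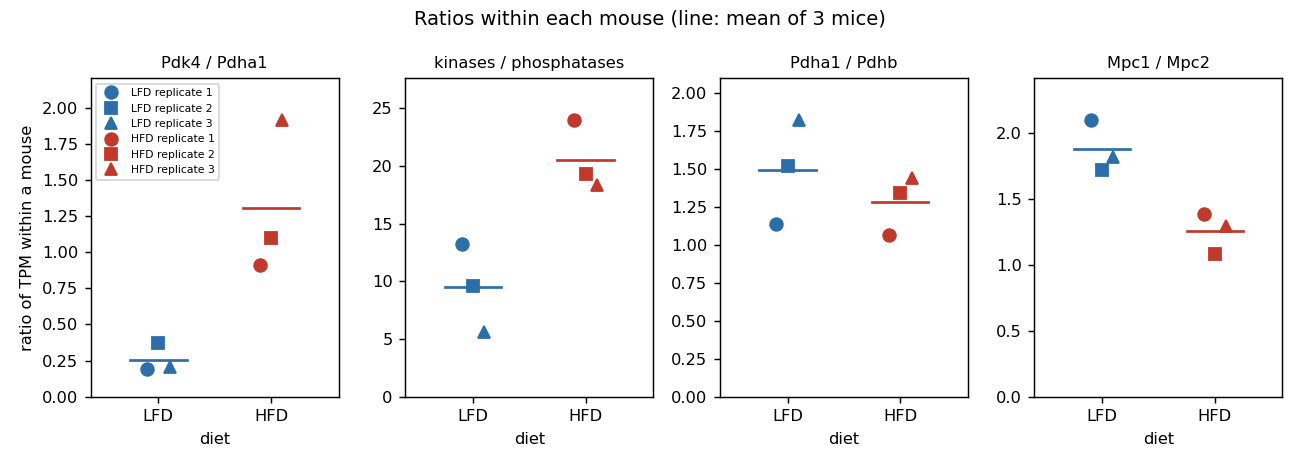
Ratios of TPM within each mouse, LFD in blue and HFD in red, with marker shapes for the replicate number and a line at the mean of 3 mice, each axis from 0. *Pdk4* over *Pdha1* and kinases over phosphatases are higher in every HFD mouse, *Mpc1* over *Mpc2* is lower in every HFD mouse (1.09 to 1.38 against 1.72 to 2.10), and *Pdha1* over *Pdhb* overlaps.

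The spread between mice of a diet was large for most members. The highest mouse had 1.60 to 3.38 times the TPM of the lowest in HFD, and 2.14 to 8.31 times in LFD, depending on the member. The posterior standard deviation that the authors' quantification gave, which covers the division of reads between similar genes, was at most 1.44% of a member's count.

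The genes of the rest of the complex overlapped between the diets. Of 9 further genes for its core, binding protein, lipoylation and phosphatase regulator, 8 were tested, 0 were at an unadjusted p under 0.05 in either direction, and 0 were free of overlap, with a median log2 fold change of 0.08. With replicate number as a block, 1 of the 8 was higher at an unadjusted p under 0.05, beside 8.75% of all tested genes that were higher and 8.76% that were lower. *Pdha2*, the testis form of the alpha subunit, was listed at 0 in all mice. *Dlat*, the E2 core, was at 89.2 to 218 TPM in HFD and 54.7 to 319 TPM in LFD mice (log2 fold change 0.04, edgeR adjusted p = 0.994). *Dld*, the E3 subunit shared with the sister complexes, was at 98.1 to 274 and 57.5 to 188 TPM (log2 fold change 0.73, edgeR adjusted p = 0.830). *Pdhx*, which holds E3 to the core, was at 29.5 to 72.1 and 16.3 to 88.1 TPM (log2 fold change 0.10, edgeR adjusted p = 0.984).

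The sister 2-oxoacid dehydrogenases of the citric acid cycle and of branched-chain amino acid breakdown gave 0 of 8 tested genes at an unadjusted p under 0.05, with a median log2 fold change of 0.40. *Bckdk* and *Ppm1k*, the kinase and phosphatase of the branched-chain complex, overlapped between the diets. Their log2 fold changes were -0.17 (edgeR adjusted p = 0.955) and 0.36 (edgeR adjusted p = 0.877). With replicate number added to the model as a block, 4 of the 8 genes were higher at an unadjusted p under 0.05. The share of all tested genes was 8.75%.

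Among 17 tested genes for the supply and other fates of pyruvate, 2 were higher and 2 lower at an unadjusted p under 0.05, and 0 were free of overlap in log2 CPM. *Me1*, the cytosolic malic enzyme that makes pyruvate and NADPH for fat synthesis, was at 115, 74.6 and 23.6 TPM in HFD and at 2109, 581 and 129 TPM in LFD (log2 fold change -3.65, edgeR adjusted p = 0.424). *Gpt2*, the mitochondrial alanine transaminase, was at 9.71 to 17.8 TPM in HFD and 26.4 to 127 TPM in LFD mice (log2 fold change -2.71, edgeR adjusted p = 0.330). Both were at lower TPM in every HFD mouse, although they overlapped after TMM normalization.

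On the side of uptake, *Slc16a1*, the monocarboxylate transporter MCT1, was at 48.1 to 106 TPM in HFD and 20.0 to 37.0 TPM in LFD mice (log2 fold change 1.65, edgeR adjusted p = 0.409), likewise without overlap in TPM alone. *Bsg*, its chaperone at the membrane, had a log2 fold change of 1.12 (edgeR adjusted p = 0.464). *Pcx*, pyruvate carboxylase, was at 42.3 to 116 TPM in HFD and 74.6 to 917 TPM in LFD mice (log2 fold change -2.48, edgeR adjusted p = 0.509). The lactate dehydrogenase subunits had log2 fold changes of -0.32 for *Ldha* and 1.51 for *Ldhb* (edgeR adjusted p = 0.927 and 0.652). With replicate number added to the model as a block, 5 of the 17 genes were higher and 4 lower at an unadjusted p under 0.05. The shares of all tested genes were 8.75% and 8.76%.

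Genes known as targets of PPARs or of fasting, of which *Pdk4* is a textbook case, lay mostly on the higher side. Of 18 tested, 15 had a log2 fold change above 0, with a median of 1.17. At an unadjusted p under 0.05 in edgeR, 5 were higher and none lower. Of all 17668 tested genes, 8063 had a log2 fold change above 0, with a median of -0.05. At that p, 3.86% of them were higher and 6.62% lower. *Fabp3*, a fatty acid binding protein, was at 556, 679 and 202 TPM in HFD and at 60.2, 79.0 and 26.6 TPM in LFD, without overlap (log2 fold change 3.32, edgeR adjusted p = 0.200). *Cpt1b*, the carnitine transferase that admits fatty acids to mitochondria, was at 163 to 493 and 22.2 to 121 TPM (log2 fold change 2.48, edgeR adjusted p = 0.409).

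*Acot2* and *Acot1*, acyl-CoA thioesterases, had log2 fold changes of 1.297 and 1.10, and *Plin2*, a lipid droplet coat protein, one of 1.28 (edgeR adjusted p = 0.372, 0.439 and 0.471). With replicate number added to the model as a block, 10 of the 18 genes were higher and 1 lower at an unadjusted p under 0.05. The shares of all tested genes were 8.75% and 8.76%. *Fabp3* had an edgeR adjusted p of 0.0107 in the block fit.

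Of 12 transcription factors and coactivators known to act on *Pdk4*, 2 were higher and 1 lower at an unadjusted p under 0.05, with a median log2 fold change of 0.31. *Ppara*, the fatty acid receptor, was at 48.8, 77.4 and 26.4 TPM in HFD and at 15.4, 7.82 and 4.48 TPM in LFD, without overlap (log2 fold change 2.56, edgeR adjusted p = 0.351). *Rxra*, its binding partner, was at 23.0 to 28.8 TPM in HFD and 51.2 to 76.0 TPM in LFD mice, also without overlap but lower in HFD (log2 fold change -1.11, edgeR adjusted p = 0.397). The coactivators *Ppargc1b* and *Ppargc1a* had log2 fold changes of 1.495 and 1.39 (edgeR adjusted p = 0.425 and 0.508). With replicate number added to the model as a block, 6 of the 12 were higher and 2 lower at an unadjusted p under 0.05. The shares of all tested genes were 8.75% and 8.76%.

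Among 15 tested targets of hypoxia signaling, the pathway that acts on *Pdk1*, 1 was higher and 0 lower at an unadjusted p under 0.05, and the median log2 fold change was 0.45. That gene was *Ankrd37*, at 2.11 to 14.0 TPM in HFD and 1.38 to 5.36 TPM in LFD mice (log2 fold change 1.79, edgeR adjusted p = 0.390). With replicate number added to the model as a block, 4 were higher at an unadjusted p under 0.05. The share of all tested genes was 8.75%.

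**Figure D5:**
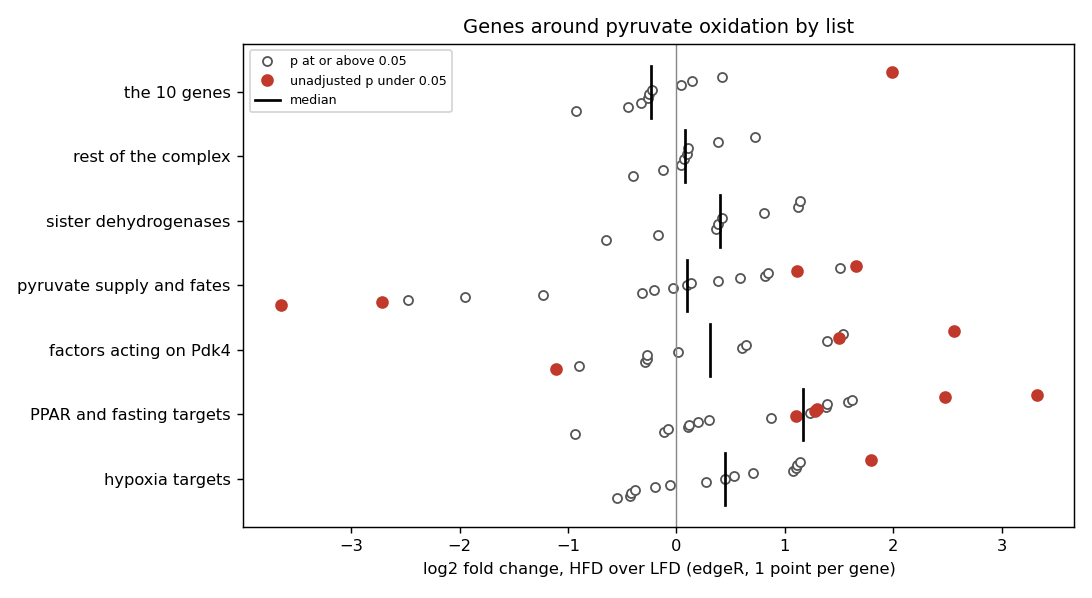
Log2 fold change, HFD over LFD (edgeR), of each tested gene in the 10 members and in 6 lists of related genes, filled where the unadjusted p is under 0.05, with a bar at each median. *Pdk4* is the filled point of the members at 1.99, and the PPAR and fasting targets have a median of 1.17.

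Over the 6 mice, the log2 CPM of *Pdk4* was most alike to that of *Nedd4l* (Pearson r = 0.993), *Nepn* (0.992), *Edrf1* (0.989), *Rps6kl1* (0.988) and *Clic5* (0.987). They were chosen as the 5 highest of all tested genes, and 286 genes had an r above 0.9. The points share libraries and the difference between diets, so this is a description over n = 6.

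Markers of other cells in the tissue also differed between the diets. Of 20 skeletal muscle markers, 19 were lower at an unadjusted p under 0.05, and their summed TPM was 21.1 to 368 in HFD and 2111 to 14682 in LFD mice. *Acta1*, skeletal actin, was at 0.68 to 37.9 and 486 to 2336 TPM, *Ckm*, the muscle creatine kinase, at 0.06 to 26.3 and 243 to 1767 TPM, and *Myh7* was at 0 in HFD replicates 2 and 3. Muscle also expresses *Pdk4*, and the muscle markers were lower in the HFD mice, where *Pdk4* was higher. The part of muscle in the levels of *Pdk4* and of the other members was not tested.

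Brown fat markers were detected in every mouse, at uneven levels. *Ucp1*, the uncoupling protein that defines brown fat, was at 2728, 4021 and 796 TPM in HFD and at 443, 11.0 and 76.0 TPM in LFD (log2 fold change 3.67, edgeR adjusted p = 0.480). The 12 brown adipocyte markers summed to 1885 to 7456 TPM in HFD and 339 to 2125 TPM in LFD mice, and 3 of them were higher at an unadjusted p under 0.05. Their log2 fold change was above 0 for 11 and below 0 for 1. The median was 1.78, beside 1.17 for the PPAR and fasting targets. All 5 tested white adipocyte markers had a log2 fold change below 0, with a median of -1.23, and 1 of them was lower at an unadjusted p under 0.05, with sums of 43.8 to 311 and 225 to 1899 TPM, *Tcf21* was at 0 in all mice and *Hoxc10* at 0 in all but LFD replicate 1.

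Of the T and NK cell markers, 7 of 11 were higher at an unadjusted p under 0.05, and 8 were higher without overlap in log2 CPM. Their sums were 13.5 to 40.1 TPM in HFD and 11.3 to 22.6 TPM in LFD mice. In LFD replicate 1, *Trac* alone gave 20.8 of the 22.6 TPM. It was the 1 tested marker of this list with a log2 fold change below 0 (-2.11, edgeR adjusted p = 0.614). Of the macrophage markers, 3 of 12 were higher, and of the endothelial markers 2 of 10, with endothelial sums of 149 to 612 and 192 to 411 TPM. With replicate number as a block, 8 brown, 5 macrophage, 7 T and NK cell and 2 endothelial markers were higher at an unadjusted p under 0.05, and 19 muscle, 3 white and 1 endothelial markers were lower. Mitochondrially encoded genes took 8.50% to 22.7% of the counts in HFD and 3.87% to 13.8% in LFD mice. The part of these differences in the *Pdk4* levels and in the *Mpc1* to *Mpc2* ratio was not tested.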

How the data were processed

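Total RNA of 6 BAT samples was depleted of ribosomal RNA and sequenced single-end. The authors trimmed reads with Trimmomatic 0.36 and quantified them with RSEM 1.3.0 on GRCm38.p4 (submitters' processing notes). RSEM divides reads that match several genes, and the deposited expected counts are not normalized. The deposited TPM values are these counts corrected for effective length and scaled to a fixed total per mouse. The authors also deposited effective lengths and the posterior SD of each count.

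Expected counts were rounded and tested in R 4.3.3 with edgeR 4.0.16 (quasi-likelihood, TMM, filterByExpr), tested on simulated data first. Depth limits low genes most, and counting error adds to the differences between animals. Log2 CPM used a prior count of 2. Alternatives were DESeq2 1.42.0, limma 3.58.1 on log2(TPM + 1), other scalings and filters, and each mouse left out. Across genes, deviations from the diet mean correlated at 0.229 to 0.522 in the 3 same-numbered pairs, so a second fit had the number as a block. The pairing rests on this check of the same data, not on the labels' words, so p-values of the block fit are descriptive. Positions come from GENCODE M21 (GRCm38) and promoters from RefSeq (GRCm38.p6), where 9 members matched.

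The members and lists were chosen with earlier results of these data known. The text names all members. From each pathway list it names the genes at an unadjusted p under 0.05 (at most 6) and fixed examples (*Dlat*, *Dld*, *Pdhx*, *Bckdk*, *Ppm1k*, *Ldha*, *Ldhb*, *Pcx*, *Ppara*, *Ppargc1a*). It also names the 5 genes most like *Pdk4*, and *Acta1*, *Ckm* and *Ucp1*. *Pdha2*, *Myh7*, *Tcf21*, *Hoxc10* and *Trac* were added after their values were seen. The other genes of the lists enter as counts and medians, and the individual result of 1 gene that was to be named is not reported here.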

Additional observations from a re-analysis of the deposited data

How the results depend on the processing

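*Pdk4* had a log2 fold change above 0 in all 14 alternatives and an unadjusted p under 0.05 in 11 of them, with adjusted p from 0.0941 (DESeq2) to 0.822, so it was called in none. The number of members at an unadjusted p under 0.05 ranged from 0 to 1 when single mice were omitted. DESeq2 at its defaults called 411 genes (106 higher, 305 lower) and limma on log2(TPM + 1) called 1, against 0 by edgeR, which had 1851 genes at an unadjusted p under 0.05. The median log2 fold change of all genes was -0.18 on the TPM scale. With the replicate block, *Pdk4* had 2.34 (standard error 0.44, edgeR adjusted p = 0.0960), and *Pdha1* (0.063), *Pdhb* (0.25) and *Mpc2* (0.15) turned positive, while no call changed and all genes gave 3094 at an unadjusted p under 0.05. *Pdhb* was at 0.014 by limma. Leaving out 1 mouse gave ranges that span 0 for *Pdk1* (-0.80 to 0.33), *Pdk2* (-0.31 to 0.84), *Pdk3* (-0.25 to 0.54), *Pdp2* (-0.030 to 1.33), *Pdha1* (-0.73 to 0.97), *Pdhb* (-0.90 to 1.39), *Mpc1* (-1.55 to 0.69) and *Mpc2* (-0.83 to 1.14); the cause was not tested. The difference in the *Pdk4* share of kinase TPM stayed between 31.8 and 41.9 percentage points.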
